A study of Mus musculus with 7 samples.

Results

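The genes described here are 30 genes of cholesterol, mevalonate and fatty acid synthesis. They were chosen by symbol for their place in the pathway, with earlier results of these data known. Of the 30, 29 were found by symbol among the 21902 genes of the deposited table, each with 1 probe set, and 27 passed a filter on dim genes that kept 13083 genes. The level of Tm7sf2, a sterol reductase gene, is not analysed here, and the gene enters only the promoter counts. Idi1 and Scd1 were below the filter. Levels are RMA values on the log2 scale, so a difference of 1 is a doubling on the array, and changes are KO minus Het.

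The RNA came from Treg (regulatory T) cells, which express Foxp3 and restrain immune responses, sorted as CD4+ YFP+ from spleen and lymph nodes (pLN in the labels) of mouse chimeras. The 3 KO arrays came from Foxp3Cre Pggt1bfl/fl chimeras and the 4 Het arrays from Foxp3Cre Pggt1bfl/wt chimeras, so both groups carry Cre driven with Foxp3 and at least 1 floxed Pggt1b allele. Pggt1b encodes a subunit of the type I enzyme that attaches geranylgeranyl lipid to proteins, and the study compared the groups to see what its loss does to effector Treg cells. The sources used here do not give age, the donor and host of the chimeras or any pooling of animals. Nor do they say whether each array stands for its own animal, and the p-values below therefore reflect sample-to-sample spread that may be technical.

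The mevalonate pathway turns acetyl-CoA into mevalonate and then into 5-carbon isoprene units, which are joined to farnesyl and geranylgeranyl diphosphate. Geranylgeranyl diphosphate is the lipid that the Pggt1b enzyme attaches to proteins, and farnesyl diphosphate is also the start of the sterol branch that ends in cholesterol. The transcription factor SREBP-2 raises the sterol genes when membrane cholesterol is low, SREBP-1 acts mainly on fatty acid synthesis, and SCAP and the INSIG proteins hold or release both. In T cells these pathways supply membrane lipid for growth and prenyl groups for small GTPases.

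Promoters are shown for 3 members. Hmgcs1, an early enzyme, was the only match to the sterol regulatory element among the 24 members that had a window to search. Ggps1 had the most negative fitted change of the tested members, and Fasn the smallest adjusted p of those that read higher. Each line gives the 250 bases before the annotated start (RefSeq, GRCm38.p6), at chr13:119690101-119690350 on the plus strand, chr13:14063489-14063738 on the minus strand and chr11:120824548-120824797 on the minus strand. Capitals mark matches on either strand to the sterol regulatory element (tcacnccac, where n is any base), the CCAAT box or the GC box GGGCGG.
Hmgcs1: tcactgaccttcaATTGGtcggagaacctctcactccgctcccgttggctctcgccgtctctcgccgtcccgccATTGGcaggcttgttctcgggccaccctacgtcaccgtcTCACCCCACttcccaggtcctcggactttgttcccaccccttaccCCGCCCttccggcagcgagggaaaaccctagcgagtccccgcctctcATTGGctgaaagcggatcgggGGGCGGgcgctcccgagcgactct
Ggps1: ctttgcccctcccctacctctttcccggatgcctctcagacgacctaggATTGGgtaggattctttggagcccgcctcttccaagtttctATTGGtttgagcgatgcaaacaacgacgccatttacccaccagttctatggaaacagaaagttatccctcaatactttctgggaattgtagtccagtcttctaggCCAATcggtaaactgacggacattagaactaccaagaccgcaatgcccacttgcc
Fasn: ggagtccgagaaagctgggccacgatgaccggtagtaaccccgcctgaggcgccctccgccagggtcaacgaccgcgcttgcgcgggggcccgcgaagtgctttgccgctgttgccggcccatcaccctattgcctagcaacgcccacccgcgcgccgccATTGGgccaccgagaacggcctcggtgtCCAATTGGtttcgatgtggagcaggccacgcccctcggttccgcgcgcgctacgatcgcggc

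The Hmgcs1 window holds 1 sterol regulatory element, 3 CCAAT boxes and 2 GC boxes in these bases, while the Ggps1 and Fasn windows hold 3 CCAAT boxes each and neither of the other motifs. In Fasn, 2 of the CCAAT matches overlap on opposite strands. RefSeq windows, which run from 250 bases before the start to 50 after it, were matched for 24 of the 30 members; Fdps, Fdft1, Sqle, Stard4, Scd1 and Scd2 were not matched. The 24 include Tm7sf2 and Idi1, which were not tested on the arrays. A CCAAT box was found in 21 of the 24 genes (87.5%), against 42.1% of the 9758 genes tested on the arrays that had a window. For the GC box the counts were 20 of 24 (83.3%) against 64.3%, and for the sterol regulatory element 1 of 24 (4.17%) against 1.37%. By window, 22 of 32 member windows (68.8%) and 37.4% of all 32851 windows held a CCAAT box, 24 (75.0%) and 35.7% a GC box, and 1 (3.12%) and 1.24% the sterol regulatory element. The window background takes in genes not tested on the arrays. By gene, a GC box was found in 38.2% of all 27025 genes with a window, beside 64.3% of those tested. All of these shares are counts of letters and say nothing of binding.

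Foxp3 read 11.16 to 11.36 on KO and 11.01 to 11.24 on Het arrays, as the Treg label requires. Of 10 tested Treg and T cell markers 0 rose and 2 fell: Ikzf2, which encodes Helios (-1.22, adjusted p = 0.00173), and Ctla4, an inhibitory receptor gene (-0.80, adjusted p = 0.0212). Over all genes tested, 2.55% rose and 3.24% fell. By sign 7 of the 10 read lower, beside 6972 of all 13083 genes tested. Cd3d, Cd3g and Lck lay below all Het arrays without passing, as did Ikzf2 and Ctla4, which passed. Of all genes tested, 9.82% lay below all Het arrays. The mean of the list was 9.76 to 9.91 in KO and 10.09 to 10.17 in Het samples on the log2 scale. The Pggt1b probe set read 6.59, 6.62 and 6.59 in KO and 7.09, 7.11, 6.71 and 6.97 in Het samples, a log2 difference of -0.37 ± 0.13 (SE) with an adjusted p of 0.126. Where its probes lie with respect to the floxed exons is not stated, so this level does not check the deletion. Myeloid markers stood higher on the KO arrays: the mean of 20 markers was 6.76 to 7.93 in KO and 5.67 to 6.11 in Het samples on the log2 scale, with KO replicate 1 the highest, and 17 to 19 of the 20 were above the array floor in KO against 10 to 12 in Het. Of the 17 tested, 12 rose (70.6%, beside 2.55% of all genes tested) and 0 fell. Of the 12, 4 (Mrc1, C1qc, Cd14 and Mertk) were above the floor on no Het array. They entered the test through the KO arrays alone. Csf1r, Mpeg1 and Itgam, with 2, 1 and 2 of 4 Het arrays above the floor, met the filter only with their KO arrays. Of the plasmacytoid dendritic cell markers 4 of 8 rose, and of the tested CD8 T and NK cell markers 2 of 4. That is 50% of each, beside the same 2.55%. In the CD8 T and NK cell list Cd8b1 and Eomes rose, while Cd8a and Prf1 did not pass. The NK cell markers Ncr1 and Klrb1c were below the floor on every array and were not tested. In a sorted bulk sample, fewer cells of a type and less RNA per cell cannot be told apart, and the part of these other cells in the values below was not tested. Of 4 tested B and plasma cell markers 0 passed.

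No member passed the threshold of the fit across all genes. Of the 27 tested, 0 rose and 0 fell at an adjusted p under 0.05 (limma), against 5.79% of all genes tested, of which 333 rose (2.55%) and 424 fell (3.24%). With each array centred on its median, 406 of all genes rose and 291 fell. At an unadjusted p under 0.05, 5 members read higher in KO cells (Sqle, Sc5d, Srebf2, Fasn and Acly) and 2 lower (Ggps1 and Insig2), which is 25.9% of members beside 19.9% of all genes tested. By sign 20 members read higher and 7 lower, with a median log2 change of 0.16. Over all genes tested, 6111 read higher and 6972 lower by sign, with a median of -0.02. All KO arrays lay above all Het arrays for 5 members (Mvd, Sc5d, Srebf2, Stard4 and Fasn), against 9.68% of all genes tested, and below them for 1 (Scd2), against 9.82%. Together these are 22.2% of members beside 19.5% of all genes, a share near the background when both directions are pooled. By direction, 5 members lay above and 1 below, beside 1266 above and 1285 below of all genes tested. This split was not tested. The 95% interval of the change lay within 1 log2 unit on either side of 0 for 26 of the 27, the exception being Ggps1, and the fitted SE ranged from 0.11 to 0.21. For those 26 a change of over 2-fold lay outside the interval.

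**Figure D1:**
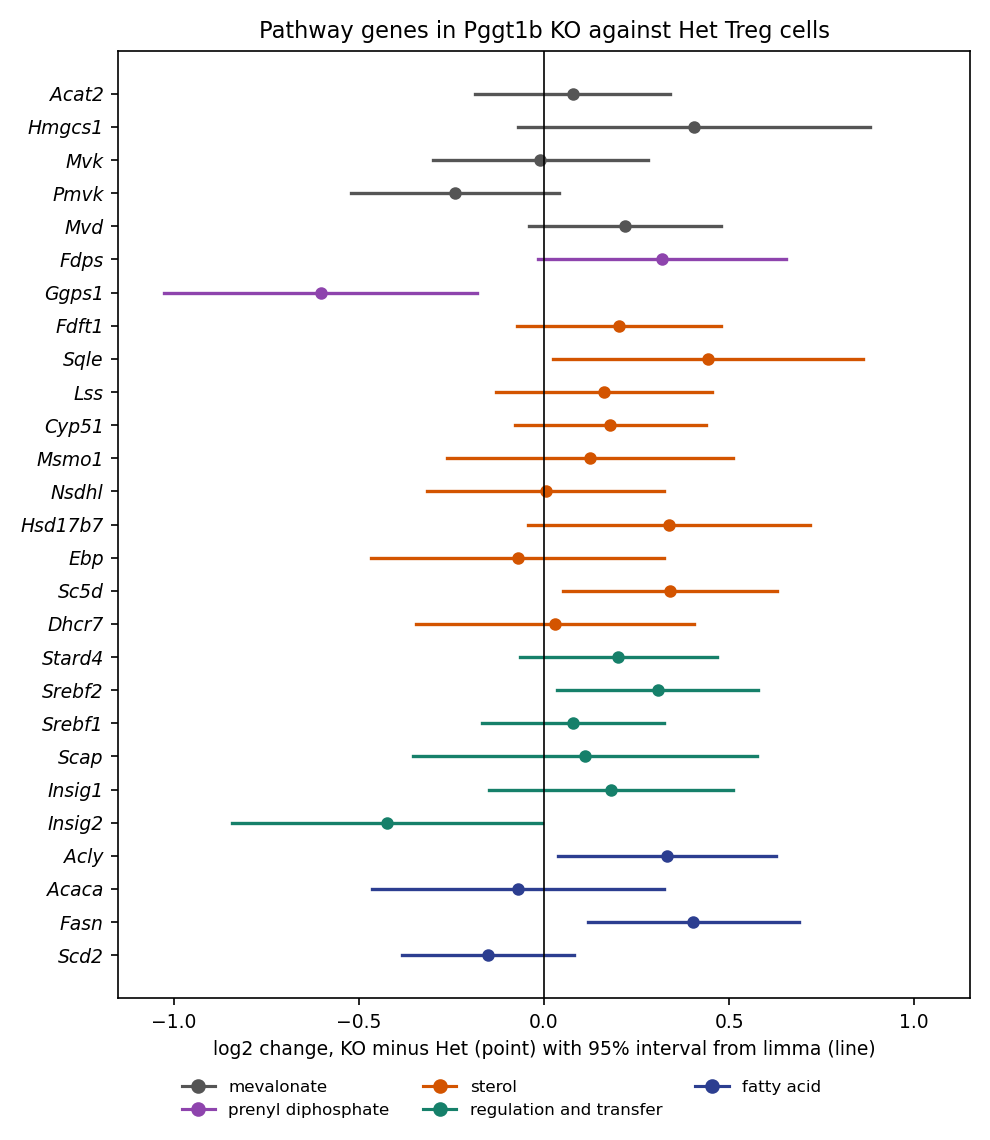
Log2 change of the 27 tested members in KO against Het Treg cells (points) with the 95% interval from limma (lines), in pathway order and coloured by branch. Ggps1 at -0.60 and Insig2 at -0.42 lie farthest to the left, and Sqle at 0.44, Hmgcs1 at 0.41 and Fasn at 0.40 farthest to the right.

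Of the 5 tested genes between acetyl-CoA and the isoprene units, 3 read higher and 2 lower by sign. The pathway starts in the cytosol with Acat2, a thiolase that makes acetoacetyl-CoA from acetyl-CoA. Acat2 read 6.99, 7.13 and 7.24 in KO and 7.00, 7.21, 6.99 and 6.96 in Het samples. Its groups overlapped, at a log2 change of 0.08 ± 0.12 (SE). Hmgcs1, HMG-CoA synthase, read 7.54, 7.52 and 7.06 in KO and 7.52, 6.97, 6.54 and 6.85 in Het samples. KO replicates 1 and 2 stood level with the highest Het array and above the other 3, and the change of 0.41 ± 0.21 had an adjusted p of 0.332 and a 95% interval from -0.07 to 0.88. Without Het replicate 3 it was 0.26.

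The next enzymes phosphorylate and decarboxylate mevalonate. Mvk, mevalonate kinase, averaged 7.09 ± 0.22 (SD, n = 3) in KO and 7.10 ± 0.10 (SD, n = 4) in Het samples, and its 95% interval ran from -0.30 to 0.28. Pmvk, phosphomevalonate kinase, read 7.52, 7.30 and 7.25 in KO and 7.71, 7.73, 7.47 and 7.47 in Het samples. Only KO replicate 1 reached into the Het range, and the change was -0.24 ± 0.13 with an adjusted p of 0.329. Mvd, mevalonate diphosphate decarboxylase, went the other way by value. Its readings were 8.09, 8.31 and 8.14 in KO against 8.05, 7.83, 7.91 and 8.05 in Het samples, a change of 0.22 ± 0.12 (adjusted p = 0.337). The exact two-sided permutation p for Mvd was 0.0286, the smallest that 35 splits of 3 and 4 arrays can give. Idi1, isopentenyl diphosphate isomerase, lay between 3.94 and 4.20 on KO arrays and between 3.62 and 4.23 on Het arrays, below the floor on each, so no change can be read for this step.

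The 2 prenyl diphosphate synthases differed in sign. Fdps makes farnesyl diphosphate and read 9.25, 9.36 and 9.10 in KO and 9.19, 9.05, 8.62 and 8.81 in Het samples. KO replicates 1 and 2 lay above all Het arrays and KO replicate 3 below Het replicate 1, at a change of 0.32 ± 0.15 (SE) with an adjusted p of 0.277. Ggps1 extends farnesyl to geranylgeranyl diphosphate, the lipid that the Pggt1b enzyme uses. It read 8.62, 7.82 and 7.79 in KO and 8.71, 8.58, 8.78 and 8.64 in Het samples. KO replicate 1 lay inside the Het range, whereas KO replicates 2 and 3 lay below every Het array.

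The change of Ggps1 was -0.60 ± 0.19 (SE), a 1.52-fold lower mean, with an adjusted p of 0.101, a 95% interval from -1.03 to -0.18 and an exact two-sided permutation p of 0.0571. Its SD was 0.47 among the 3 KO and 0.09 among the 4 Het samples. Leaving out KO replicate 1, the KO array inside the Het range, the change was -0.88 and the adjusted p 0.00482. Without KO replicate 2 it was -0.47 (adjusted p = 0.299), and without KO replicate 3 -0.46 (adjusted p = 0.303). KO replicate 1 also had the most myeloid marker signal, and a link to its Ggps1 level was not tested. With array weights the change was -0.75 and the adjusted p 0.01555, and with a trended robust prior -0.60 and 0.0496. Over all the alternatives its adjusted p ran from 0.00482 to 0.303, and its sign was negative in each.

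**Figure D2:**
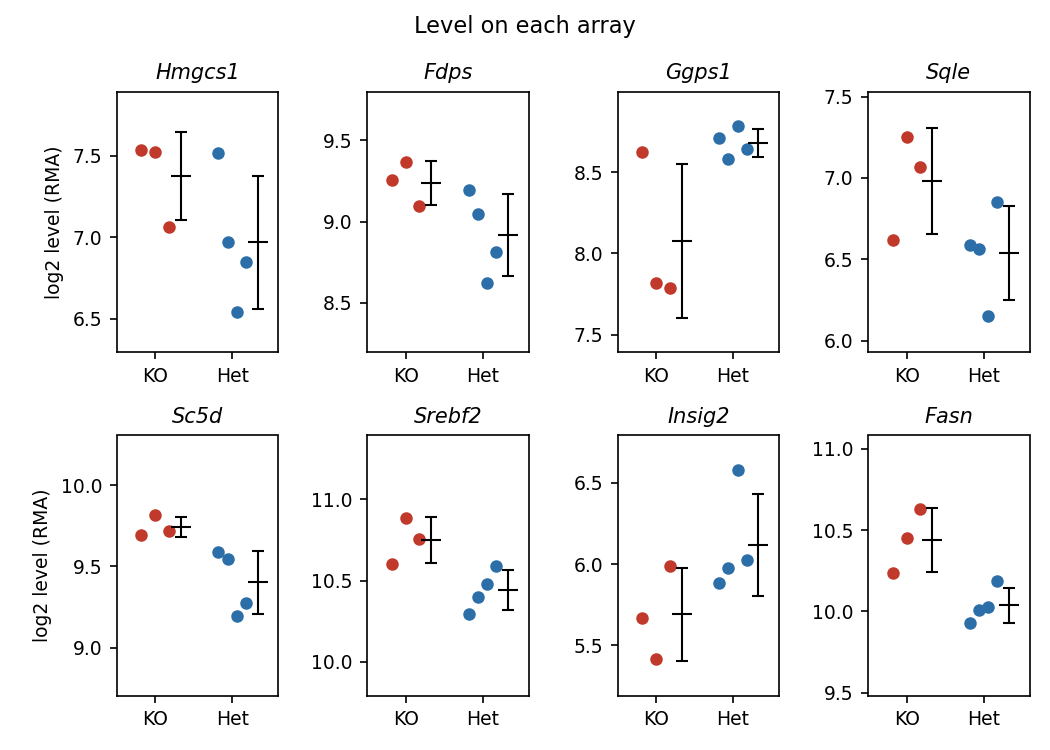
Log2 level on each KO (red) and Het (blue) array for 8 members, with the mean and SD of each group in black and an axis of its own for each gene. In Ggps1, 2 KO arrays lie near 7.8 and the third inside the Het range of 8.58 to 8.78, while in Sc5d, Srebf2 and Fasn all 3 KO arrays lie above the 4 Het arrays.

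Sterol synthesis proper starts when Fdft1, squalene synthase, joins farnesyl units. Of the 10 sterol branch members tested, 9 read higher in KO cells by sign and 1 lower, with a median log2 change of 0.17. None passed the threshold, and Nsdhl, Dhcr7 and Ebp changed sign under an alternative. Fdft1 averaged 9.45 ± 0.15 (SD, n = 3) in KO and 9.25 ± 0.13 (SD, n = 4) in Het samples, a difference of 0.20, or 0.12 without KO replicate 2. Sqle, squalene epoxidase, read 6.62, 7.25 and 7.07 in KO and 6.59, 6.56, 6.15 and 6.85 in Het samples. KO replicates 2 and 3 stood above all Het arrays and KO replicate 1 did not. The change of Sqle, 0.44 ± 0.19 (SE), was the highest fitted value of the 27 members, and its adjusted p was 0.224, or 0.0462 with array weights.

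Lss and Cyp51, which close and demethylate the sterol ring, differed by 0.16 ± 0.13 and 0.18 ± 0.12 (SE). Msmo1, Nsdhl and Hsd17b7 remove methyl groups in sequence, and their differences were 0.12 ± 0.17, 0.0046 ± 0.14 and 0.34 ± 0.17. Hsd17b7 read 7.09, 7.28 and 7.22 in KO and 6.84, 7.03, 6.41 and 7.17 in Het samples, so that Het replicate 3 stood well below the rest and Het replicate 4 among the KO arrays. Its adjusted p was 0.312, and without Het replicate 3 the difference was 0.19. Ebp, the sterol isomerase, was the member of the branch that read lower, by 0.07 on the log2 scale, with an interval from -0.47 to 0.33.

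Sc5d, the sterol desaturase, read 9.69, 9.81 and 9.71 in KO and 9.59, 9.55, 9.20 and 9.27 in Het samples. The groups did not overlap, and the change of 0.34 ± 0.13 (SE) had an adjusted p of 0.176 and an exact two-sided permutation p of 0.0571. Dhcr7, which makes cholesterol from 7-dehydrocholesterol, read 8.27, 9.06 and 8.66 in KO and 8.73, 8.60, 8.64 and 8.55 in Het samples. Its KO arrays lay on both sides of the Het range, with an SD of 0.40 against 0.08, and the change was 0.03 ± 0.17.

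Of the 6 genes of regulation and transfer, 5 read higher and 1 lower by sign, with a median log2 change of 0.15. Srebf2, which encodes SREBP-2, read 10.60, 10.89 and 10.75 in KO and 10.29, 10.40, 10.48 and 10.59 in Het samples. All KO arrays lay above all Het arrays, KO replicate 1 by little, and the change was 0.31 ± 0.12 (SE) with an adjusted p of 0.193. Srebf1, which encodes SREBP-1, averaged 9.01 ± 0.05 (SD, n = 3) in KO and 8.93 ± 0.10 (SD, n = 4) in Het samples, a change of 0.08 with an interval from -0.17 to 0.32. Scap, the escort of both factors, differed by 0.11 ± 0.21, and its Het replicate 4 at 6.99 lay far below the other Het arrays at 7.65 to 7.90. These are transcript levels, and the cleaved, active forms of the factors were not measured.

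Insig1 and Insig2 encode the anchors that keep SCAP in the endoplasmic reticulum, and Insig1 is itself a target of the SREBPs. Insig1 read 7.98, 7.80 and 7.83 in KO and 7.63, 7.96, 7.80 and 7.36 in Het samples, overlapping, at a change of 0.18 ± 0.15 (SE, adjusted p = 0.562). Insig2 read 5.67, 5.42 and 5.99 in KO and 5.88, 5.97, 6.58 and 6.03 in Het samples. KO replicate 2 was below the floor, KO replicate 3 lay inside the Het range, and the change of -0.42 ± 0.19 had an adjusted p of 0.245, or was -0.27 without Het replicate 3. Stard4, a carrier of cholesterol between membranes, lay between 6.97 and 7.14 on KO arrays and between 6.63 and 6.96 on Het arrays, without overlap, at a change of 0.20 ± 0.12 and an adjusted p of 0.402, or 0.13 without Het replicate 4.

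Fatty acid synthesis draws on the same acetyl-CoA, which Acly cuts from citrate. Of the 4 tested members of this branch, 2 read higher and 2 lower, with a median log2 change of 0.13. Acly read 11.45, 11.84 and 11.66 in KO and 11.22, 11.20, 11.35 and 11.50 in Het samples. Only KO replicate 1 lay within the Het range, and the change was 0.33 ± 0.13 (SE) with an adjusted p of 0.194. Acaca, acetyl-CoA carboxylase, differed by -0.07 ± 0.18, and its 3 KO arrays at 7.78 to 8.06 lay inside the Het range of 7.52 to 8.28.

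Fasn, fatty acid synthase, read 10.24, 10.45 and 10.63 in KO and 9.93, 10.01, 10.03 and 10.19 in Het samples, with no overlap. Its change was 0.40 ± 0.13 (SE), a 1.32-fold higher mean, with an adjusted p of 0.103, a 95% interval from 0.12 to 0.69 and an exact two-sided permutation p of 0.0286. Fasn passed in 3 alternatives: with each array centred on its median (0.47, adjusted p = 0.0444), with array weights (0.46, adjusted p = 0.0296) and with a trended robust prior (0.40, adjusted p = 0.0277). Over all alternatives its adjusted p ran from 0.0277 to 0.310.

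The desaturases Scd1 and Scd2 put the first double bond into saturated fatty acids. Scd2 read 10.30, 10.22 and 10.16 in KO and 10.40, 10.43, 10.33 and 10.36 in Het samples. All KO arrays lay below all Het arrays by a small margin, a change of -0.15 ± 0.11 (SE) with an adjusted p of 0.479. Scd1 lay between 5.54 and 5.69 on KO arrays and between 5.41 and 5.58 on Het arrays, above the floor on 1 of 7 arrays (KO), and was not tested.

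Across arrays the levels of the members varied within each group as well as between the groups. The median deviation of the 27 members from their Het means was 0.13, 0.19 and 0.12 log2 units in KO replicates 1 to 3 and lay between -0.09 and 0.09 in Het samples, beside -0.07 to 0.03 for all genes in KO. For the 10 sterol branch members alone it was 0.17, 0.29 and 0.11 in KO and 0.11, 0.13, -0.17 and -0.10 in Het samples, so that Het replicate 2 lay above the lowest KO array and Het replicate 1 close to it. Het replicates 3 and 4 were the lowest Het array for 8 and 7 of the 17 mevalonate, prenyl and sterol members (47.1% and 41.2%), against 21.9% and 30.7% of all genes tested. Hmgcs1, Fdps, Sqle and Hsd17b7 all had their lowest Het reading in Het replicate 3. Members measured on the same array share its amplification and scaling.

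**Figure D3:**
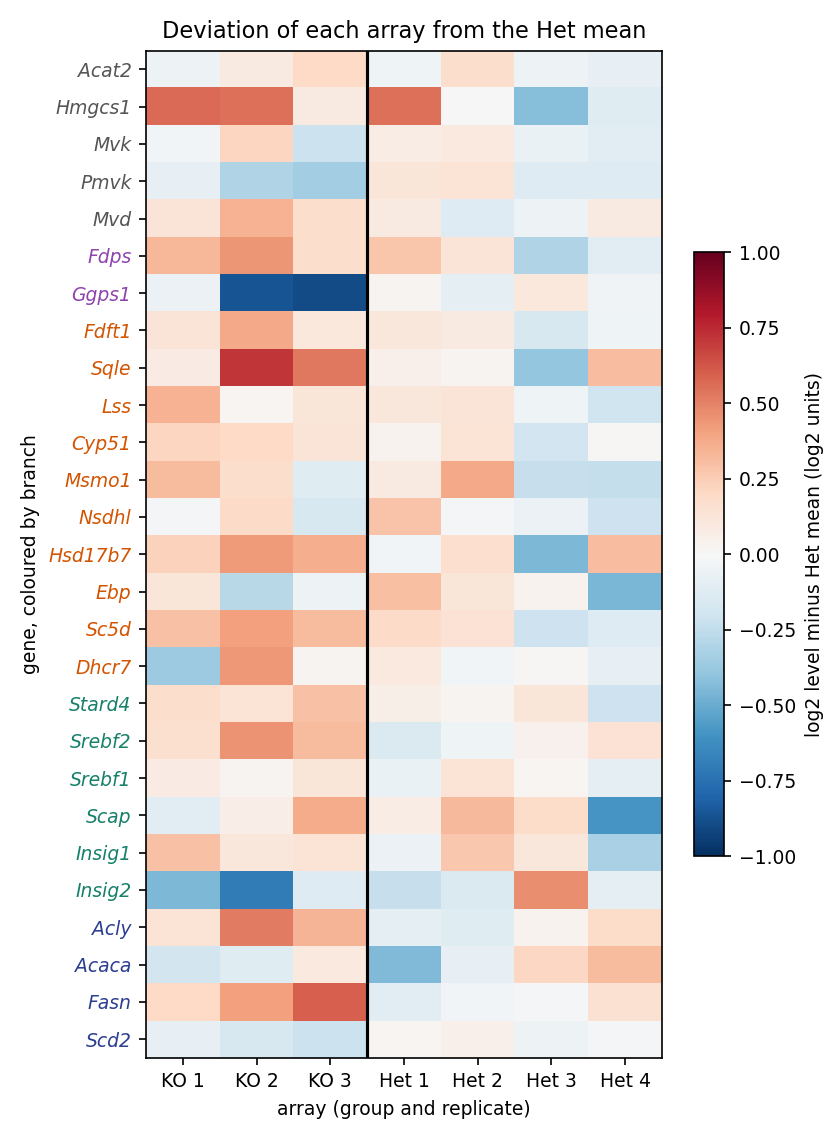
Log2 level of each tested member on each array minus the mean of the 4 Het arrays, with genes in pathway order coloured by branch and KO arrays to the left of the line. Ggps1 is dark blue in KO replicates 2 and 3 only, and Hmgcs1, Fdps, Sqle and Hsd17b7 are blue in Het replicate 3.

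Other genes of lipid metabolism were taken from 4 lists that do not hold the members. Some of these lists held genes past the threshold, and the fatty acid oxidation list, like the members, held none. Of 17 tested genes of the other branches from farnesyl and geranylgeranyl diphosphate, 2 fell and 0 rose (11.8%, beside 5.79% of all genes), with a median change of 0.02. Rabggtb, the beta subunit of the enzyme that attaches geranylgeranyl groups to Rab GTPases, read 8.72, 8.49 and 8.85 in KO and 9.40, 9.34, 9.46 and 9.31 in Het samples, a change of -0.69 ± 0.12 (SE, adjusted p = 0.00809). Chm, the escort protein that presents Rabs to it, fell by 0.60 with an adjusted p of 0.0479, and this call was lost when any array except KO replicate 3 was left out (-0.63 to -0.43), after median centring (-0.54), after quantile normalization (-0.53) and with no filter. The other Rab transfer genes of the list did not pass, Rabggta at 0.04 ± 0.11 and Chml at 0.16 ± 0.16 (SE).

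Among 14 tested genes of cholesterol transport, storage and efflux, 4 rose and 0 fell (28.6%), with a median change of 0.27. They were Cyp27a1, a sterol hydroxylase (1.03 ± 0.20, SE, above the floor on 2 of 4 Het arrays), Apoe, the lipoprotein gene (0.88 ± 0.18), Osbp, an oxysterol-binding carrier (0.55 ± 0.14), and Nr1h3, which encodes the sterol receptor LXR-alpha (1.45 ± 0.37). Nr1h3 read 8.93, 7.33 and 7.51 in KO and 7.16, 6.50, 6.20 and 6.01 in Het samples, highest in KO replicate 1, where the mean of the myeloid markers was also highest, at 7.93. Without that array its change was 0.95 (adjusted p = 0.102), and it also missed the threshold without KO replicate 3 (1.66) or Het replicate 2 (1.47), 3 (1.36) or 4 (1.30), after median centring (1.52, adjusted p = 0.0590) and with no filter (adjusted p = 0.0628). Apoe passed when KO replicate 2, Het replicate 1 or Het replicate 4 was the array left out, and missed the threshold for each of the other 4 (0.69 to 0.88). Osbp missed it when any array except Het replicate 2 was left out (0.45 to 0.59) and with no filter. Cyp27a1 passed in the 13 alternatives in which it was tested, all but the filter on all arrays. With 2 of 4 Het arrays above the floor, Cyp27a1 met the filter on dim genes only with its KO arrays. Macrophages are known to express both Nr1h3 and Apoe, and the part of such cells in these values, Cyp27a1 included, was not tested.

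In the 19 tested genes of other fatty acid steps, 2 rose and 1 fell (15.8%), with a median change of 0.06. Hacd3, a dehydratase of fatty acid elongation, read 8.32, 8.35 and 8.60 in KO and 9.33, 9.47, 9.58 and 9.15 in Het samples, a change of -0.96 ± 0.14 (SE, adjusted p = 0.00237). The desaturases Fads1 (0.45 ± 0.12, SE) and Fads2 (at least 1.25-fold) rose. No Het array was above the floor for Fads2, so it entered the test through the KO arrays alone. Fads1 missed the threshold when any 1 array was left out (0.38 to 0.52), with no filter and with the trended prior, and Fads2 did so for each array except KO replicate 2 and Het replicate 4. Of 15 tested genes of fatty acid oxidation, 0 passed, with a median change of -0.13. Those with the smallest p were Cpt1a, which imports fatty acids into mitochondria (0.42 ± 0.12, adjusted p = 0.0757), and Hadhb, a subunit of the trifunctional protein (-0.37 ± 0.13, adjusted p = 0.144).

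**Figure D4:**
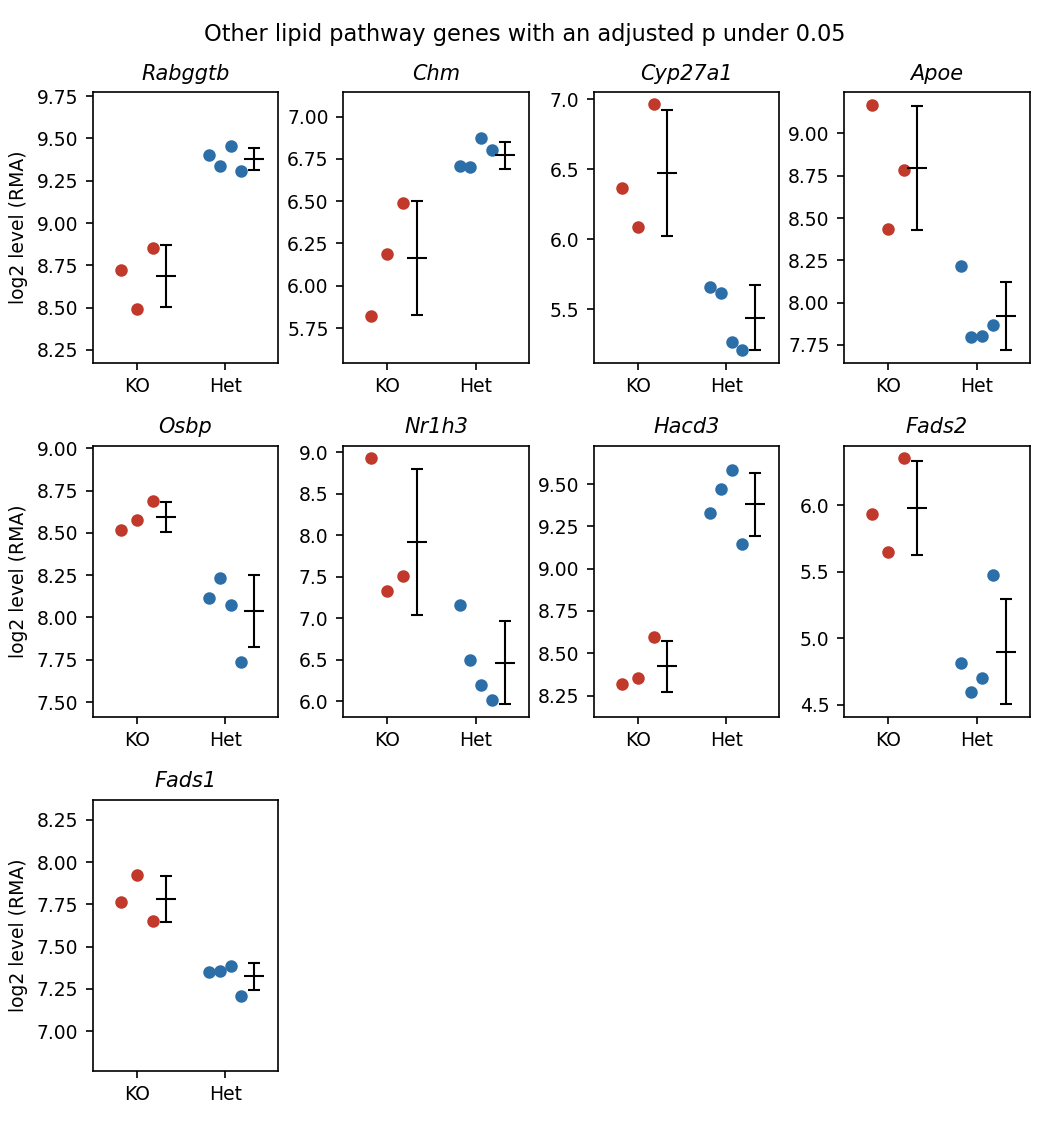
Log2 level on each KO (red) and Het (blue) array for 9 other lipid pathway genes past the threshold, with the mean and SD of each group in black and an axis of its own for each gene. The KO and Het arrays do not overlap in any of these 9, against 19.5% of all genes tested. The 9 were chosen by adjusted p, which favours such separation, so it adds no support. Nr1h3 has its highest point in KO replicate 1.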

How the data were processed

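The deposited levels are log2 RMA values. The authors used Affymetrix Expression Console 1.1, according to the submitters' processing notes. RMA corrects background, equalises intensity distributions and summarises probes per set, so a change of most genes one way would be reduced. Total RNA was amplified from small samples, per the labels' protocols. The sources used here name neither the array design nor a genome build.

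Groups come from the genotype labels, and replicate numbers follow deposit order. The probe set with the highest mean stood for a gene. Genes were kept where at least 3 arrays exceeded that array's floor, the 95th percentile of 1117 olfactory receptor probe sets (5.48 to 5.77). The 13083 kept genes entered a linear model (lmFit and eBayes of limma 3.58.1, R 4.3.3), with Benjamini-Hochberg adjustment over all of them at 0.05. The script was tested on simulated data. For genes below the floor on all arrays of a group, folds are bounds. The number of arrays limits precision.

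Members, lists and tests were chosen with earlier results of these data known. Named genes are all members, Pggt1b, and in each other list the genes past the threshold or, where none passed, the 2 with the smallest p; markers were named after their values were seen. Some genes, and 1 related list that rests on them, are not reported here. The alternatives were median centring, quantile normalization, no filter, a filter on all arrays, the mean of a gene's probe sets, array weights, a trended robust prior, and each array left out.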

Additional observations from a re-analysis of the deposited data

Results flagged for a closer look

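In a group of 4 arrays, a value whose gap to its nearest neighbour, as a share of the group's range, exceeded Dixon's 95% critical value was taken as standing apart; groups of 3 were not examined. Among 41 genes examined (29 members and 12 others), 3 had such a Het value, where chance gives about 1 in 20. Idi1 read 3.62 in Het replicate 4, below the next value of 4.17, with all arrays below the floor. Acat2 read 7.21 in Het replicate 2, above the next value of 7.00. Apoe read 8.22 in Het replicate 1, above the next value of 7.87, and that array also had the highest Het mean of the myeloid markers, at 6.11.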

How the results depend on the processing

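Of 377 member values over 14 alternatives, 370 kept their side of the threshold and 7 passed it. Each member has 1 probe set, so the mean of a gene's probe sets repeats the same readings. The filters and the trended prior also leave the change itself as it was, so none of these alternatives could alter a sign. The median change of the members ran from 0.073 to 0.22, and 21 of 27 members kept their sign throughout; Acaca, Dhcr7, Ebp, Mvk, Nsdhl and Scap did not. Members that rose numbered 1 after median centring, 2 with array weights and 1 with a trended robust prior; members that fell numbered 1, with array weights, with that prior or without KO replicate 1 (0 to 1 over arrays left out). With array weights 547 of all genes rose and 697 fell; over arrays left out the counts ran from 209 to 290 and from 240 to 455. The smallest were without KO replicate 3 and Het replicate 3. In the other prenyl branches 1 fell after median centring, quantile normalization or no filter, and 1 to 2 over arrays left out. Transport genes that rose numbered 2 without a filter, 5 after quantile normalization or with the trended prior, 6 with array weights, and 1 to 3 over arrays left out, where 0 to 1 fell (Nceh1, without KO replicate 3). Other fatty acid genes that rose numbered 1 without a filter, 1 with the stricter filter and 0 to 1 over arrays left out. In fatty acid oxidation 1 rose with array weights or the trended prior. The causes were not tested. No paired analysis was possible because the labels give no replicate numbers. Idi1 and Scd1 are limited by signal at the array floor.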
